A study of Mus musculus with 40 samples.

Results

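Livers of wild-type (WT) mice fed a purified control diet (PD) for 3 or 21 days were compared by RNA sequencing. All WT libraries whose labels give day 3 or day 21 were used, which gave 10 of the 40 libraries of the series, 5 for each day and each from the whole liver of 1 mouse. The mice were 9-week-old females on the C57BL/6JBomTac background that carried floxed Nampt alleles without Cre, and they had eaten a fortified breeding chow from weaning until the PD was given. The remaining libraries were WT livers of days 6 and 12 and livers of hepatocyte-specific Nampt knockout (HNKO) littermates of the same days, in which Alb-Cre deletes the floxed Nampt alleles in hepatocytes. The labels record the days as an age. In the study's methods they are the length of PD feeding, which is the sense used here. No library was taken before the diet change, and mice of day 21 were also older than those of day 3 by the same number of days, so that diet time and age cannot be told apart. Below, values per library are given in the order 1, 5, 24, 25, and 26 for day 3 and 19, 20, 21, 39, and 41 for day 21, as CPM, the counts of a gene scaled to a common library size by TMM.

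The liver adapts its transcript levels to what is eaten, through sterol-sensing, bile acid-sensing, and nutrient-sensing pathways, and it does so on top of a daily rhythm set by the circadian clock. Hepatocytes, which make up most of the organ's mass, secrete most plasma proteins, produce bile, and break down amino acids, lipids, and drugs. Whole-liver RNA also holds transcripts of endothelial cells, Kupffer cells, stellate cells, and blood. In such samples, fewer cells of a type cannot be told apart from less RNA per cell.

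Of the 20297 genes tested, 1005 (4.95%) were called between day 21 and day 3 with edgeR's quasi-likelihood test at a Benjamini-Hochberg adjusted p-value under 0.05. Of these, 666 were higher at day 21 (3.28% of the tested genes) and 339 were lower (1.67%). The changes were mostly small, with a median log2 fold change of 0.55 for the genes called higher and -0.44 for those called lower, beside -0.00 for all tested genes. Without adjustment, 10.8% of all tested genes were higher and 9.64% lower at a p under 0.05, and 50.6% had a negative log2 fold change. A change of more than 2-fold was found for 93 genes called higher and 51 called lower. The 2 sets of 5 libraries did not overlap for 448 of the genes called higher (67.3%) and 221 of those called lower (65.2%), whereas 7.19% of all tested genes had sets that did not overlap. Between 17638065 and 32364063 counts were available per library at day 3 and between 21583443 and 64181492 at day 21.

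Some libraries held transcripts of other tissues. WT library 26 of day 3 had 156 CPM of the immunoglobulin heavy chain Ighm, against 5.61 to 11.1 CPM in the other 9 libraries. The same library had 14.3 CPM of the adipocyte gene Cfd and 4.49 CPM of Adipoq, neither of which passed 0.177 CPM elsewhere. Libraries 19 and 21 of day 21 held the skeletal muscle actin Acta1 at 13.1 and 34.9 CPM and the muscle creatine kinase Ckm at 3.55 and 10.3 CPM, while no other library passed 0.227 CPM for either gene. Hepatocyte identity was clear in all 10 libraries, with albumin (Alb) between 66244 and 119248 CPM, and 0 of 8 hepatocyte markers were called. Without library 26, 700 genes were called, and without libraries 26, 19, and 21 together, 328 were called. The count also fell to 546 without library 39 and to 664 without library 19 of day 21. Markers of endothelium, stellate cells, cholangiocytes, and T and NK cells, 7 genes each, had 0 called, with 2, 1, 1, and 2 at an unadjusted p under 0.05. Over all tested genes, 4.95% were called and 20.4% had an unadjusted p under 0.05.

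**Figure D1:**
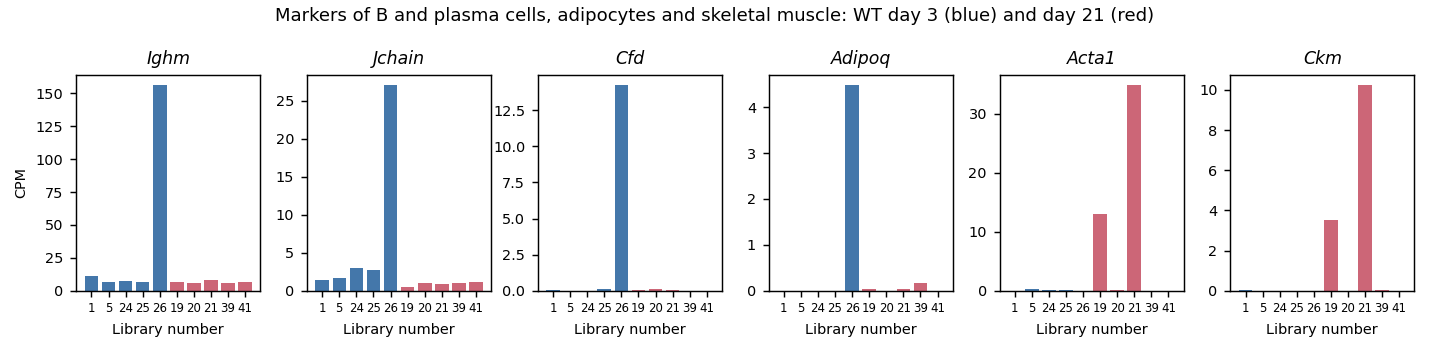
Bars give the level (CPM, linear axis from 0) of 6 marker genes in each WT library of day 3 (blue) and day 21 (red), by library number. Ighm, Jchain, Cfd, and Adipoq stand out in library 26 of day 3, and Acta1 and Ckm in libraries 19 and 21 of day 21.

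Among the genes called higher whose 2 days did not overlap, a condition of this choice, the 12 with the smallest p-values coded, among others, for a copper pump, a cell-surface receptor, transcription and chromatin factors, and a brake on translation. Atp7b, the copper-transporting ATPase that loads ceruloplasmin and moves copper into bile (chr8:21992785-22060305, minus strand, GRCm38), was at 64.2, 61.6, 50.9, 53.9, and 38.8 CPM at day 3 and at 99.7, 95.3, 97.5, 99, and 92 CPM at day 21. The day 21 values were close to each other (log2 fold change 0.84 ± 0.09 SE, adjusted p = 3.77e-06). Tram2, a translocation-associated membrane protein of the endoplasmic reticulum (ER; chr1:20996299-21079229, minus strand), was at 10.6, 8.82, 7.55, 7.71, and 7.25 CPM and then at 20.1, 18.8, 16.9, 26.6, and 18.7 CPM. Its lowest day 21 value was still well above its highest day 3 value (1.27 ± 0.15, adjusted p = 4.56e-06). Eif4ebp2, which binds eIF4E and holds back cap-dependent translation when it is not phosphorylated (chr10:61428491-61452661, minus strand), rose from 150, 133, 124, 140, and 150 CPM to 318, 279, 261, 375, and 262 CPM. This was a log2 fold change of 1.10 ± 0.15 (adjusted p = 1.51e-05).

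Notch2, a Notch receptor of the liver (chr3:98013527-98150361, plus strand), was at 123, 110, 95.3, 111, and 126 CPM at day 3 and at 179, 160, 160, 182, and 178 CPM at day 21 (0.61 ± 0.07, adjusted p = 4.56e-06). Epas1, which codes for the hypoxia-inducible factor HIF-2α (chr17:86753700-86833410, plus strand), rose from 166, 147, 144, 131, and 142 CPM to 266, 218, 223, 252, and 275 CPM (0.76 ± 0.10, adjusted p = 9.12e-06). Both had a narrow spread within each day. The other 7 of the 12 genes were the chromatin reader Brpf3 (0.91 ± 0.11), the forkhead factor Foxk1 (0.92 ± 0.12), the zinc finger homeobox factor Zfhx3 (0.91 ± 0.12), the autophagy adaptor Wdfy3 (0.65 ± 0.08), Prrc2b (0.65 ± 0.08), Hectd4 (0.71 ± 0.09), and C77080 (1.01 ± 0.13), which overlaps Yars.

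Chosen in the same way among the genes called lower, the 12 with the smallest p-values included metabolic and mitochondrial enzymes and a centromere protein. Tlcd2, a membrane protein with a TLC domain (chr11:75461715-75470899, plus strand), fell from 87.5, 74, 90.5, 106, and 95.5 CPM to 37.5, 46.7, 37.3, 42, and 51.8 CPM (-1.07 ± 0.15, adjusted p = 3.53e-05). It overlaps the noncoding Mir22hg on the same strand, so that reads of the overlap could count for either gene. Cenpm, a centromere protein of dividing cells (chr15:82233779-82244748, minus strand), was low throughout, at 3.89, 2.68, 4.64, 2.99, and 2.4 CPM at day 3 and 1.14, 0.506, 1.31, 0.751, and 0.824 CPM at day 21 (-1.83 ± 0.27, adjusted p = 6.32e-05). Tymp, the thymidine phosphorylase (chr15:89371931-89377039, minus strand), fell from 158, 166, 149, 154, and 127 CPM to 85.9, 92.4, 74.4, 77.8, and 100 CPM. This was a log2 fold change of -0.81 ± 0.13 (adjusted p = 0.000236), although 40.6% of the 51-base stretches of its transcripts are also found in other genes, mainly the neighbouring Sco2.

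Prdx5, a peroxiredoxin of mitochondria and peroxisomes (chr19:6906697-6910106, minus strand), was at 143, 154, 142, 154, and 139 CPM at day 3 and at 105, 102, 100, 97.9, and 102 CPM at day 21. The 5 day 21 values lay within a few CPM of each other and below all day 3 values (-0.53 ± 0.09, adjusted p = 0.000327). Ormdl3, a brake on sphingolipid synthesis, was lower by a similar amount (-0.55 ± 0.09, adjusted p = 0.000428), as were the transcription elongation factor subunit Supt4a (-0.51 ± 0.10) and the kinase Cdk5 (-0.45 ± 0.09). The remaining 5 were Zcchc17 (-0.58 ± 0.10), Dexi (-0.77 ± 0.14), Tmem123 (-0.38 ± 0.07), Nrbp1 (-0.37 ± 0.07), and Wbp1 (-0.58 ± 0.11). Dexi overlaps Ciita on the opposite strand.

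**Figure D2:**
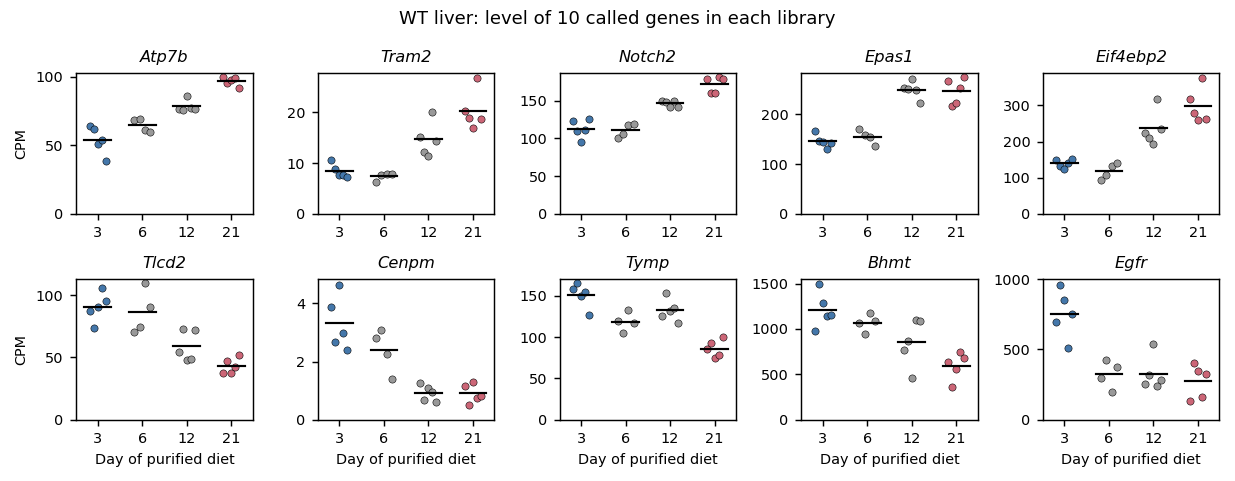
Points give the level (CPM, linear axis from 0) of 10 called genes in each WT library by day of purified diet (blue, day 3; grey, days 6 and 12; red, day 21), and lines give the mean of each day. The 5 genes called higher lie near the day 3 level at day 6 and above it at day 12, except Atp7b, whose mean was already 64.7 CPM at day 6, while Egfr was at 322 CPM at day 6 and 327 CPM at day 12.

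WT libraries of days 6 and 12 place these genes in time. They share the day 3 libraries as the reference, so their differences are not independent of the day 21 result, and only levels are given. At day 6, the genes called higher at day 21 were at a median of 0.05 log2 units from their day 3 level. At day 12, the median was 0.39, and at day 21 it was 0.55. The genes called lower were at a median of -0.08, -0.25, and -0.45 log2 units at days 6, 12, and 21. The mean of Epas1 was 146, 155, 250, and 247 CPM at days 3, 6, 12, and 21, with similar levels at days 12 and 21. Atp7b instead had means of 53.9, 64.7, 78.5, and 96.7 CPM.

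A further 5 genes called lower were chosen after their values were seen. Egfr, the receptor for epidermal growth factor (chr11:16752203-16918158, plus strand), was at 694, 961, 854, 511, and 750 CPM at day 3 and 130, 406, 347, 157, and 328 CPM at day 21 (-1.46 ± 0.31, adjusted p = 0.00345). All day 21 libraries were below all day 3 libraries, and the means of days 6 and 12 were 322 and 327 CPM. The complement genes C8a (-1.04 ± 0.26, adjusted p = 0.0142), C8b (-1.28 ± 0.31, adjusted p = 0.0112), and C9 (-1.12 ± 0.25, adjusted p = 0.00569), which code for parts of the membrane attack complex, were called lower, although their days overlapped. From day 3 to day 6, the mean of C8a went from 335 to 191 CPM, that of C8b from 219 to 124 CPM, and that of C9 from 254 to 199 CPM. Srd5a1, a steroid 5α-reductase, was also lower (-1.10 ± 0.23, adjusted p = 0.00395), with a mean of 36.1 CPM at day 6 and 34.4 CPM at day 12. It overlaps Nsun2 on the opposite strand, and 15.1% of its 51-base stretches are shared with Gm17108.

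Among called genes whose mean log2 CPM was 1 or more, the 3 largest rises were in noncoding transcripts. CT010467.1, annotated as an rRNA gene (chr17:39846353-39848827, minus strand), was at 241, 130, 127, 117, and 109 CPM at day 3 and 702, 249, 2927, 612, and 3300 CPM at day 21 (3.43 ± 0.65, adjusted p = 0.00141). Libraries were depleted of rRNA before sequencing, and the day 21 values covered a range from 249 to 3300 CPM. Mir6236 followed the same 2 libraries, at 552 CPM in library 21 and 664 CPM in library 41, against 14.4 to 65.4 CPM in the other 8. It was called (2.99 ± 0.81, adjusted p = 0.0243), but the days overlapped and the exact permutation p was 0.111. Whether the efficiency of rRNA depletion differed between these libraries was not tested. Gm28836, antisense to the glutathione S-transferase gene Gsta3, was at 0.778, 1.64, 1.9, 2.78, and 2.48 CPM and then at 10.8, 4.87, 9.22, 8.79, and 6.99 CPM (2.09 ± 0.37, adjusted p = 0.000658). The use of the strand in counting is not stated, and reads of the 2 genes may not have been told apart.

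The 3 largest falls were in Serpina1e, Igkc, and Ighm. Serpina1e, a member of the α1-antitrypsin cluster (chr12:103946931-103958975, minus strand), was at 608, 364, 167, 547, and 196 CPM at day 3 and 9.3, 64.7, 46, 18.6, and 65 CPM at day 21 (-3.21 ± 0.94, adjusted p = 0.0381). All day 21 libraries were lower, but 33.7% of its 51-base stretches are shared with the neighbouring paralogs Serpina1a to Serpina1d, so its level is uncertain, and it was not called without libraries 19 and 21 (adjusted p = 0.17). The immunoglobulin light chain Igkc (-2.91 ± 0.80, adjusted p = 0.0272) and the heavy chain Ighm (-2.48 ± 0.63, adjusted p = 0.0158) were called through library 26 of day 3. Without that library, they had log2 fold changes of -1.14 and -0.25 (adjusted p = 0.397 and 0.797). Among the B and plasma cell markers, 5 of 6 were called lower, beside 1.67% of all tested genes, and 0 were called without library 26, in which the summed level was 216 CPM beside 14.4 CPM in the lowest day 3 library and 10.5 to 14.6 CPM at day 21. All 28 immunoglobulin genes tested were negative, beside 50.6% of all tested genes, and 6 were called, against 14 of 20 negative and 1 called without library 26. The rest of the 28 passed the count filter only with library 26 in the fit, so their negative values depended on that library. Ly6c2, a monocyte marker, was likewise called (-1.55 ± 0.45, adjusted p = 0.035) and lost without library 26 (adjusted p = 0.167).

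Of 24 genes of bile acid synthesis and transport, 3 were called higher and 1 lower, beside 3.28% and 1.67% of all tested genes, with 9 positive and 15 negative values and a median log2 fold change of -0.10. The counts of each list were also taken in 8 alternative fits (DESeq2, only the 10 libraries, a term for the series of library numbers, a term for a clock score described with the clock genes, the length and GC trend removed, and 3 sets of libraries without 26 or without 19 and 21), where they were 1 to 3 higher and 0 to 4 lower. Abcc2, the canalicular export pump for conjugated bilirubin and other organic anions, rose from 737, 716, 637, 670, and 589 CPM to 1051, 1004, 905, 1041, and 1068 CPM (0.60 ± 0.12, adjusted p = 0.00308), without overlap. Slco1a4, an uptake transporter, was higher (0.77 ± 0.21, adjusted p = 0.023), and so was the basolateral export pump Abcc3 (0.75 ± 0.20, adjusted p = 0.0206), though the latter was not called without library 26 (adjusted p = 0.0615). Nr0b2, the corepressor SHP that is induced by bile acids, was the gene called lower (-0.97 ± 0.24, adjusted p = 0.0133), and Cyp7a1, the rate-limiting enzyme of bile acid synthesis, ranged from 6.9 to 237 CPM within day 3 and did not pass (0.69 ± 0.67, adjusted p = 0.604). Without libraries 19 and 21, Slco1a4 and Nr0b2 were not called (adjusted p = 0.181 and 0.158). Cyp2c70, the enzyme that makes the muricholic acids of mice, was at 959, 1097, 808, 914, and 940 CPM at day 3 and at 669, 498, 622, 362, and 427 CPM at day 21 (-0.87 ± 0.19, adjusted p = 0.00583). It was the one gene called among 34 cytochromes P450 of drug metabolism, where the median was -0.10 and 0 were higher and 8 lower at an unadjusted p under 0.05, beside 10.8% and 9.64% of all tested genes. In the alternative fits, 0 to 1 of these were called higher and 1 to 5 lower. In 44 genes of conjugation, the sulfotransferase Sult1c2 (0.90 ± 0.21, adjusted p = 0.00683) and Ugdh, which makes the UDP-glucuronate used for glucuronidation (0.80 ± 0.20, adjusted p = 0.014), were called higher and 0 lower. Values of this list were more often negative (29 genes, median -0.13), with 5 higher and 9 lower at an unadjusted p under 0.05, and in the alternative fits, 0 to 4 were called higher and 0 to 8 lower.

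Of 23 genes of cholesterol synthesis and uptake, 4 were called higher and 1 lower, beside 3.28% and 1.67% of all tested genes, with a median log2 fold change of 0.01. Srebf2, the transcription factor that drives this pathway, was at 38.7, 35.9, 34, 30.5, and 43.1 CPM at day 3 and at 65.1, 50, 43.3, 55.2, and 57.8 CPM at day 21 (0.57 ± 0.14, adjusted p = 0.0113), with a narrow gap and no overlap between the days. The sterol carrier Stard4 was also higher (0.58 ± 0.17, adjusted p = 0.0344), and the synthetic enzyme Ebp was lower (-0.49 ± 0.12, adjusted p = 0.0145). The counts of the list changed with the libraries and the model, for reasons that were not tested. Without library 26, 5 members were called higher and the median was 0.30. Without libraries 19 and 21, 1 was called higher and the median was -0.003. With the clock score, 6 were called higher and the median was 0.45. The alternative fits gave 1 to 6 higher and 0 to 1 lower.

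In each of the lists of lipid and glucose metabolism, 0 or 1 genes were called, beside 4.95% of all tested genes. Elovl3, a fatty acid elongase whose liver level is sex- and clock-dependent, fell from 4.67, 7.09, 6.9, 3.49, and 3.88 CPM to 0.394, 1.21, 1.41, 1.24, and 0.51 CPM (-2.41 ± 0.58, adjusted p = 0.0101), without overlap, but was not called without libraries 19 and 21 (adjusted p = 0.0586). It was the one gene called both among the 21 genes of fatty acid and triglyceride synthesis (median 0.07) and among the 25 of the growth hormone axis and urinary proteins (median -0.34). In the alternative fits, 0 to 1 genes of the latter list were called higher and 0 to 7 lower. Acadl, the long-chain acyl-CoA dehydrogenase, was the one gene called higher (0.45 ± 0.11, adjusted p = 0.0116) of 29 genes of fatty acid oxidation and ketogenesis (median 0.10). Foxo1, the insulin-restrained factor that promotes gluconeogenic genes, was the one called (0.52 ± 0.12, adjusted p = 0.00755) of 21 genes of glucose metabolism (median 0.02). Foxo1 overlaps Gm38034 on the same strand. None of 14 lipid droplet genes passed (median 0.19), with 2 at an unadjusted p under 0.05. In the alternative fits, 0 to 1 genes of lipid synthesis and of lipid droplets, 0 to 2 of fatty acid oxidation, and 0 to 3 of glucose metabolism were called higher, and 0 to 2 of lipid synthesis and 0 of the other 3 lists were called lower.

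Genes of amino acid catabolism had mostly negative values. Of 34 genes, 31 had a negative log2 fold change (median -0.24), 8 of these at an unadjusted p under 0.05, and 2 were called lower. Over all tested genes, 50.6% were negative, 9.64% lower at an unadjusted p under 0.05, and 1.67% called lower. In the alternative fits, 1 to 7 genes of the list were called lower. Bhmt, which remethylates homocysteine with betaine (chr13:93616675-93637961, minus strand), was at 977, 1496, 1291, 1140, and 1152 CPM at day 3 and at 633, 363, 561, 745, and 676 CPM at day 21 (-1.02 ± 0.21, adjusted p = 0.00236). The highest day 21 value was below the lowest day 3 value, and 25.04% of its 51-base stretches are shared with related genes. Fah, the last enzyme of tyrosine breakdown, was the other (-0.58 ± 0.17, adjusted p = 0.0362), and was lost without libraries 19 and 21 (adjusted p = 0.0792). Among 21 ATF4 targets, 0 were called (0 to 1 lower in the alternative fits), with 1 at an unadjusted p under 0.05 (median 0.07).

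Nampt, which is floxed but intact in these mice and overlaps Gdap10 on the same strand, was at 70.8, 94.7, 80, 66.7, and 57.4 CPM at day 3 and 76.6, 91.9, 100, 86.7, and 86.3 CPM at day 21. The days overlapped, and the difference did not pass (0.26 ± 0.23, adjusted p = 0.564; exact permutation p = 0.0952). Of 32 genes of NAD synthesis and use, 3 were called higher and 1 lower (median -0.06), beside 3.28% and 1.67% of all tested genes, and 0 to 3 were higher and 0 to 5 lower in the alternative fits. Aox1, an aldehyde oxidase that oxidizes N-methylnicotinamide, was higher (0.63 ± 0.14, adjusted p = 0.00474), as were the mitochondrial adenylyltransferase Nmnat3 (0.45 ± 0.12, adjusted p = 0.0251) and the NAD synthetase Nadsyn1 (0.28 ± 0.08, adjusted p = 0.0329), the latter lost without library 26 (adjusted p = 0.0695). Kmo, an enzyme of the tryptophan route to NAD, was lower (-0.44 ± 0.13, adjusted p = 0.0347) and overlaps Fh1. Nmnat3, Nadsyn1, and Kmo were not called without libraries 19 and 21 (adjusted p = 0.146, 0.131, and 0.128).

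Genes of antigen presentation and the interferon response had mostly negative values, of which few passed. The shares over all tested genes were 50.6% negative, 9.64% lower at an unadjusted p under 0.05, and 1.67% called lower. Of 20 genes of MHC antigen presentation, 17 were negative (median -0.30) and 2 were called lower. These were Psmb8, an immunoproteasome subunit (-0.57 ± 0.12, adjusted p = 0.00292), and the class I heavy chain H2-K1 (-0.37 ± 0.10, adjusted p = 0.0226), the latter lost without libraries 19 and 21 (adjusted p = 0.0611). Of 34 interferon-stimulated genes, 33 were negative (median -0.27), 13 of them at an unadjusted p under 0.05, and Ifit1 (-0.61 ± 0.17, adjusted p = 0.0291) and Iigp1 (-0.43 ± 0.13, adjusted p = 0.0488) were called. Neither was called without libraries 19 and 21 (adjusted p = 0.141 and 0.159) or when a trend with length and GC content was removed, where 0 genes of the list were called. Over all alternative fits, 1 to 5 genes of antigen presentation, 0 to 5 interferon-stimulated genes, and 0 to 5 acute phase genes were called lower. Of 27 acute phase genes, 25 were negative (median -0.31) and 0 were called, with 7 lower at an unadjusted p under 0.05 and the smallest adjusted p for Orm1 (-0.73 ± 0.23, adjusted p = 0.0522). The 7 Kupffer cell and macrophage markers were all negative as well (median -0.43), 5 of them at an unadjusted p under 0.05 and 0 called. At that unadjusted p, 0 were lower without libraries 19 and 21, 5 without library 26, and 4 without libraries 26, 19, and 21. The summed level of these markers was 463 to 683 CPM at day 3 and 321 to 525 CPM at day 21. The 7 erythroid markers summed to 86.7 to 227 CPM at day 3 and 31.1 to 104 CPM at day 21, with 0 called and 4 lower at an unadjusted p under 0.05. The part of blood and macrophage transcripts in these lists was not tested.

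Chaperones and the protein-making and respiratory machinery had small negative values across most members, beside 50.6% of all tested genes, of which 9.64% were lower at an unadjusted p under 0.05 and 1.67% were called lower. Of 29 heat shock proteins and ER chaperones, 24 were negative (median -0.25), and Creld2 (-0.95 ± 0.26, adjusted p = 0.0244) and Calr (-0.64 ± 0.19, adjusted p = 0.0465) were called lower. Creld2 was highest in library 26, at 37.1 CPM, and was not called without it (adjusted p = 0.119), and over the alternative fits 0 to 6 of the 29 were called lower, with 0 without libraries 19 and 21. Of 45 nuclear genes for respiratory complex subunits, 42 were negative (median -0.21), 19 of them at an unadjusted p under 0.05, and the complex I subunit Ndufs8 (-0.37 ± 0.11, adjusted p = 0.0357) and the cytochrome c oxidase subunit Cox5b (-0.35 ± 0.10, adjusted p = 0.0408) were called. Of 46 cytosolic ribosomal protein genes, 45 were negative (median -0.16), 15 of them at an unadjusted p under 0.05, and Rplp0 (-0.29 ± 0.07, adjusted p = 0.0165) and Rplp1 (-0.47 ± 0.12, adjusted p = 0.019) were called. These last 2 share 32.5% and 59.5% of their 51-base stretches with pseudogenes. Ndufs8 and Cox5b were not called without library 26 (adjusted p = 0.0678 and 0.0828). Without libraries 19 and 21, 0 genes of the respiratory and ribosomal lists were called, at medians of -0.23 and -0.15. Over the alternative fits, 0 to 18 genes of the respiratory and 0 to 14 of the ribosomal list were called lower, the most with the clock score. The 10 mitochondrially encoded transcripts had a median of 0.12 (-0.11 to 0.12 in the alternative fits) with 0 called and 1 at an unadjusted p under 0.05.

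Other lists gave single calls or none, beside 4.95% called, 20.4% at an unadjusted p under 0.05, and 50.6% negative over all tested genes. Fn1, which codes for fibronectin, was the one gene called of 38 matrix genes (median -0.25). It was at 3338, 2858, 2008, 2086, and 2085 CPM at day 3 and 4038, 3748, 3192, 3476, and 5707 CPM at day 21 (0.70 ± 0.17, adjusted p = 0.0132), so that the highest day 3 library passed the lowest of day 21. In the alternative fits, 0 to 2 matrix genes were called higher and 0 to 4 lower. Egr1 was the one called of 18 immediate early genes (1.38 ± 0.40, adjusted p = 0.0335), with 14.8 CPM in the lowest and 90.4 CPM in the highest day 21 library, and was lost without library 26 (adjusted p = 0.0988). Of 36 cell cycle genes, 31 were negative (median -0.42), with 0 called and 3 at an unadjusted p under 0.05. The lists of oxidative stress genes (20 genes, median -0.01) and of metallothioneins and iron handling (12 genes, median 0.26) had 0 called, with 2 and 5 at an unadjusted p under 0.05. In the alternative fits, 0 cell cycle genes were called, 0 to 1 immediate early genes in either direction, 0 to 2 oxidative stress genes lower, and 0 to 1 genes of metallothioneins and iron handling higher.

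Of the clock genes, 7 did not overlap between the days in these 10 libraries, and 0 were called. Of the 20 genes of the core clock and its output, 14 had positive and 6 negative values (median 0.60), beside 50.6% negative over all tested genes. For 5 genes, all day 21 libraries were higher, and for 2 genes, all were lower, whereas 7.19% of all tested genes did not overlap. At an unadjusted p under 0.05, 5 were higher and 3 lower, beside 10.8% and 9.64% of all tested genes. DESeq2, the fit with a term for the series of library numbers, and the fit with the length and GC trend removed each called 1 lower. The fit with the clock score, which is built from these genes, called 2 lower. Arntl, which codes for the clock activator BMAL1, was at 22.7, 10.7, 19, 15.7, and 22.6 CPM at day 3 and at 4.3, 3.62, 2.87, 6.27, and 8.79 CPM at day 21 (-1.83 ± 0.62, adjusted p = 0.0778). Nr1d1, the repressor REV-ERBα that acts on Arntl and that overlaps Thra, was at 84.9, 69.5, 57, 57.1, and 61.4 CPM and then at 116, 86.4, 102, 110, and 145 CPM (0.76 ± 0.26, adjusted p = 0.0805). Per3, a period gene, was at 30.2, 51, 31.7, 33.6, and 21.7 CPM and then at 102, 88.8, 148, 71.6, and 71.5 CPM (1.52 ± 0.71, adjusted p = 0.218). These 3 genes were shown because their days do not overlap, and the adjusted p-values take the spread from all 38 libraries.

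Within-day spread of these genes was much larger at the days between. Arntl ranged from 2.26 to 27 CPM over the 4 WT libraries of day 6 and from 2.34 to 32.3 CPM over the 5 of day 12, and Dbp, a PAR bZIP clock output factor, ranged from 7.07 to 159 CPM and from 2.89 to 183 CPM. Dbp overlaps Sphk2 on the opposite strand. In a fit of the 10 libraries alone, 7 of the 20 clock genes were called higher and 2 lower, beside 707 higher and 480 lower over all genes of that fit. Among the clock genes called there were Arntl (adjusted p = 0.00589), Cry2 (adjusted p = 0.00621), and Dbp (adjusted p = 0.0192). The labels give no time of day for sampling. A score of the clock genes (their first principal component, 84.7% of their variance) ran from -3.97 to 2.14 in the day 3 libraries and from 1.98 to 4.59 in those of day 21, so that sampling time and diet time cannot be told apart for genes that follow the clock. When this score entered the model as a covariate, an alternative added after seeing the data, 2496 genes were called. Of the 12 leading higher genes, Atp7b, Tram2, Notch2, Epas1, and Eif4ebp2 had adjusted p-values of 1.83e-06, 1.38e-06, 6.25e-07, 1.53e-05, and 3.71e-06 in that fit. These genes were chosen by their p-values in the same libraries, and the score nearly parts the 2 days. That fit therefore cannot separate sampling time from diet time.

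**Figure D3:**
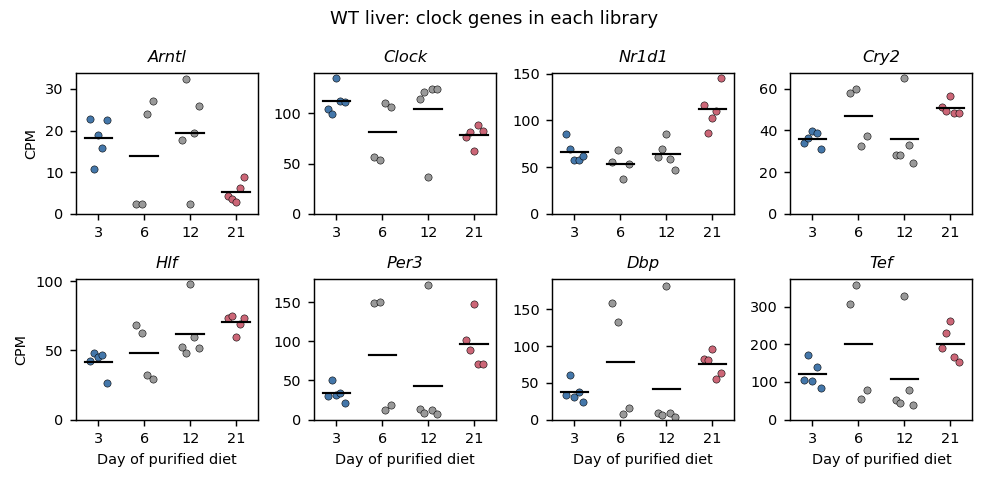
Points give the level (CPM, linear axis from 0) of 8 clock genes in each WT library by day of purified diet (blue, day 3; grey, days 6 and 12; red, day 21), and lines give the mean of each day. The day 3 and day 21 libraries lie apart for Arntl, Clock, Nr1d1, Cry2, Hlf, and Per3, while the libraries of days 6 and 12 cover ranges such as 7.07 to 159 CPM for Dbp.

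Clock genes are known to carry E-boxes, bound by the BMAL1 and CLOCK pair, and D-boxes, bound by the PAR bZIP factors Dbp, Tef, and Hlf. The promoter windows shown hold such letters in genes of the list and are given as a description of sequence only. In RefSeq promoters (GRCm38.p6, 250 bases before to 50 after the start), 17 of the 20 clock genes had an entry. CACGTG, read on both strands, stood in 5 of the 17 (29.4%), beside 7.15% of all 32851 promoters, and TTATGTAA stood in 1 (Per3), beside 0.938%. The E-box genes were Bhlhe41, Ciart, Per1, and Tef, whose estimates were positive, and Cry1, whose estimate was negative (-0.38 ± 0.22, adjusted p = 0.338). Each stretch reads 5′ to 3′ on the strand of its gene, with the motif in capitals. The lines give both D-boxes of Per3 (chr4:151044837-151044896 and chr4:151044790-151044849, minus strand), and 1 E-box each of Per1 (chr11:69098756-69098815, plus strand), Tef (chr15:81802519-81802578, plus strand), and Cry1 (chr10:85185082-85185141, minus strand).
Per3, upstream D-box: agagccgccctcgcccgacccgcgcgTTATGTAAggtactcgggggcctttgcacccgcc
Per3, downstream D-box: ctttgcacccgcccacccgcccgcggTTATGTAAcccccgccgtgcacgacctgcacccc
Per1, E-box: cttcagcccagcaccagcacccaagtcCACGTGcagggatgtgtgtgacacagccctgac
Tef, E-box: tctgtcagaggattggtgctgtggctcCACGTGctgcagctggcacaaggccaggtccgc
Cry1, E-box: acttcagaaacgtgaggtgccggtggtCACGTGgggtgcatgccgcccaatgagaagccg

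Genes called higher had longer transcripts than genes called lower. The median length of the longest annotated transcript was 5065.5 nt for the genes called higher, 2037 nt for those called lower, and 2774 nt for all tested genes, at a GC content of 50.6%, 50.9%, and 48.7%. The 12 leading higher genes ran from 5187 to 17152 nt and the 12 leading lower genes from 854 to 2907 nt. With all genes split by length into 10 classes of equal size, 0.838% of the shortest and 12.2% of the longest class were called higher. The share called lower was greatest in class 4, at 3.06%, and was 0.690% in the longest. The median change was not ordered by length throughout, since it was 0.09 in the shortest class, -0.10 in class 3, and 0.09 in the longest.

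The trend of counts with length and GC content was then removed from each library, as an alternative chosen after seeing the data. This left 864 called genes, 504 higher and 360 lower, of which 731 were among the 1005. All 24 leading genes were still called, whereas Stard4, Fah, Calr, H2-K1, Ifit1, Iigp1, and Rplp0 were not, with adjusted p-values of 0.05 to 0.109. The longest class then had 6.16% called higher and 2.91% called lower. The slopes of counts on length per library overlapped between the days, at -0.0411 to -0.00316 log2 units per doubling of length at day 3 and -0.0298 to -0.00588 at day 21. Within each series of library numbers they did not overlap, and the order differed. Among libraries 1 to 21, slopes were -0.00932 to -0.00316 at day 3 and -0.0298 to -0.0151 at day 21, and among libraries 22 to 41, they were -0.0411 to -0.0286 at day 3 and -0.0278 to -0.00588 at day 21. Whether RNA quality moved with these lengths was not tested. By annotation class, 555 protein-coding genes were higher and 308 lower of 14568, and antisense genes were higher in 30 and lower in 2 of 1197. Over all tested genes, 3.28% were called higher and 1.67% lower.

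**Figure D4:**
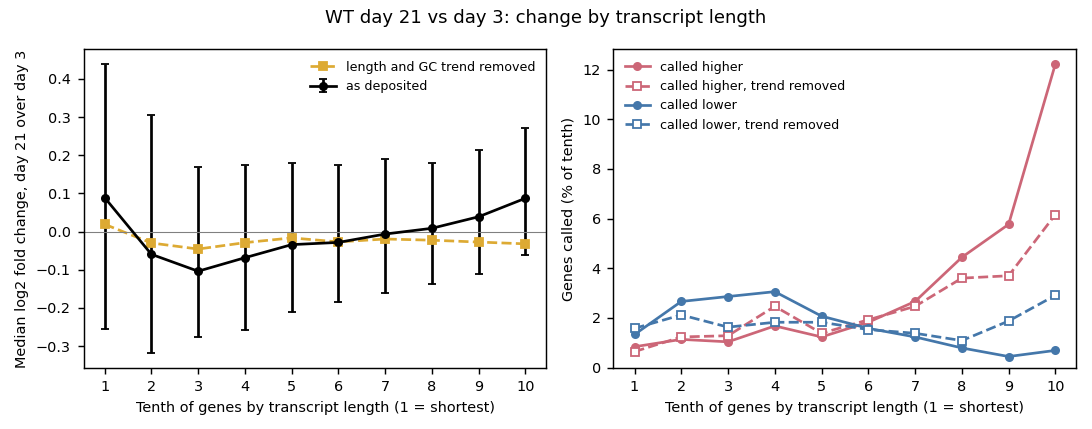
Left, the median log2 fold change (day 21 over day 3) of the genes in each of 10 classes by transcript length, with bars from the lower to the upper quartile of genes, and the median after removal of the length and GC trend of each library. Right, the percentage of each class called higher (red) or lower (blue), before (solid) and after (dashed) that removal, where the share called higher in the longest class went from 12.2% to 6.16%.

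The same contrast in HNKO liver, 3 libraries of day 21 against 5 of day 3 that share no animal with the WT libraries, gives the change with time where hepatocytes lack Nampt. In HNKO, 493 genes were called (2.43%), 240 higher and 253 lower. Of the WT calls, 194 were also called in HNKO, which is 19.3% of the WT calls and 39.4% of the HNKO calls, and all 194 had the same direction in both. The clock score moved with the days in HNKO too, from -5.17 to -2.65 at day 3 and from -0.94 to 4.05 at day 21, and its part in the shared calls was not tested. The HNKO count rested on few mice and was 47 without library 38 and 122 without library 37 of day 21, 266 without library 40 of day 21, and 186 and 169 without libraries 3 and 4 of day 3. The 12 leading higher genes of WT were all called higher in HNKO, with log2 fold changes from 0.43 to 1.15. Tram2, for example, rose by 1.15 ± 0.17 in HNKO (adjusted p = 0.000199), and Brpf3 by 0.92 ± 0.12 (adjusted p = 0.000199). Of the 12 leading lower genes, all were negative in HNKO, and Tymp (-0.66 ± 0.15, adjusted p = 0.0178) and Ormdl3 (-0.52 ± 0.11, adjusted p = 0.00959) were called.

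**Figure D5:**
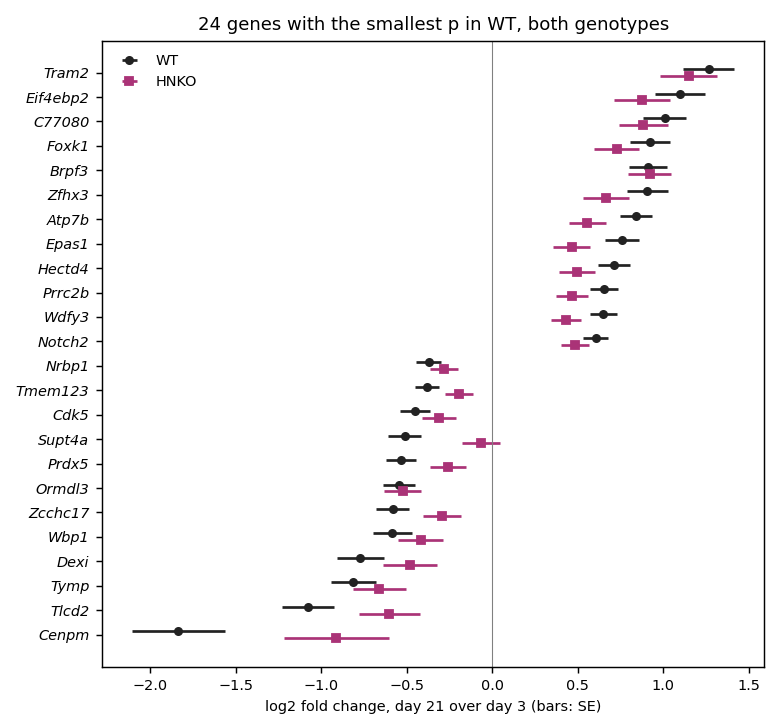
Log2 fold change of day 21 over day 3 in WT (black circles, 5 against 5 libraries) and HNKO (purple squares, 3 against 5 libraries) for the 12 leading higher and 12 leading lower genes of WT, with standard errors from edgeR as bars. All 24 genes lie on the same side of 0 in both genotypes, with HNKO values from 0.43 to 1.15 for the higher and -0.91 to -0.07 for the lower genes.

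A difference between the genotypes in the change with time was tested by an interaction in the same model. It was called for 0 of the 20297 genes with edgeR (0%), with 786 at an unadjusted p under 0.05, and for 4 genes with DESeq2. Some genes that were called in WT had values nearer to 0 in HNKO. Bhmt fell by 1.02 on the log2 scale in WT and had a log2 fold change of -0.14 ± 0.24 in HNKO (adjusted p = 0.834), a difference of 0.88 ± 0.31. Egfr had -0.38 ± 0.35 in HNKO, a difference of 1.08 ± 0.46, and Elovl3 had -0.22 ± 0.67, a difference of 2.19 ± 0.87. These differences did not pass after adjustment over all genes, so that a difference between the genotypes was not shown for these genes. Abcc2 (0.51 ± 0.14, adjusted p = 0.0474) and Cyp2c70 (-0.82 ± 0.23, adjusted p = 0.0469) were called in HNKO too, in the direction they had in WT.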

How the data were processed

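The authors removed rRNA from total RNA of whole liver, sequenced paired ends of 51 bp, and aligned them with STAR 2.7.2b to GRCm38, and counted fragments on GENCODE genes with featureCounts 1.6.4. The deposited table holds raw counts per gene without normalization, for 55487 genes. Strand use in counting is not given in the sources used here.

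Genes were filtered with edgeR 4.0.16 in R 4.3.3 (minimum count 10, minimum total 15, minimum proportion 0.7), which left 20297 genes, normalized with TMM factors, and modelled by group (genotype with day) over 38 libraries, without HNKO libraries 17 and 18 of day 21, which failed quality control. The quasi-likelihood test (legacy dispersion) was used with Benjamini-Hochberg adjustment, and the standard errors (SE) are those implied by its statistic. For named genes, log2 CPM (prior count 2) was also tested by exact permutation, two-sided. Promoters came from RefSeq. In simulated data with 200 genes changed by a log2 fold change of 2, 87.5% were recovered in the WT comparison among 19798 genes, 84% in HNKO among 19853 genes, and 73.5% for the interaction among 19843 genes. False calls numbered 13, 4, and 4. Of the 1005 genes called in WT, 144 changed by more than 2-fold, so these shares do not give the recovery of changes as small as most of those called.

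Named genes are the 12 higher and 12 lower called genes with the smallest p-values whose days do not overlap, the 3 largest rises and falls above a mean of 1 log2 CPM, list members, Nampt, and genes chosen after their values were seen. Those chosen after were Egfr, C8a, C8b, C9, and Srd5a1, and also Serpina3k and Corin, whose values are not given here. Comparisons, genes, and lists were chosen with earlier results of these data known. Some list members are not reported here. Alternatives were RLE scaling, DESeq2 1.42.0, other filters, other sets of libraries, other dispersions, label series (numbers 1 to 21 against 22 to 41), and leaving out each library. Depth, the spread between mice, and 5 mice per day limit precision. The labels do not state whether mice of a day shared cages or litters.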

Additional observations from a re-analysis of the deposited data

Results flagged for a closer look

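In 150 groups of 5 libraries (the called named genes at each day), a value was marked where its gap to the nearest other library took up more than 0.71 of the group's range on the log2 scale. This held for 7 values, and chance marks about 5% of such groups. WT library 26 of day 3 was high for 4 genes of B and plasma cells, with gaps of 0.761 of the range for Jchain, 0.834 for Ighm, 0.854 for Ms4a1, and 0.841 for Igkc. WT library 5 of day 3 was high for Nrbp1 (0.715), and WT library 1 of day 3 for CT010467.1 (0.776). WT library 20 of day 21 was high for Creld2 (0.801).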

How the results depend on the processing

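The number of genes called in WT (1005) stayed within 1.5 times under RLE scaling (997), DESeq2 (1365), a filter that asked for 10 counts in each library (1195), only the 10 libraries (1187), only the 19 WT libraries (1042), the edgeR 4 dispersion (1060), and robust estimation (985). It was 597 with no filter on low counts, 480 with all 40 libraries, 2002 with the label series as a covariate, 576 within label series 1, and 1084 within label series 2. Of the 1005 main calls, 186 (18.5%) were also called within label series 1 and 579 (57.6%) within label series 2. Among alternatives chosen after seeing the data, it was 2496 with the clock score, 593 without libraries 19 and 21 of day 21, and 328 without these and library 26 of day 3. Leaving out each WT library in turn gave 546 to 974 calls, with 546 without library 39 and 664 without library 19 of day 21. The share of higher genes among the calls, 66.3%, was 55.1% with the label series, 47.0% and 70.7% within label series 1 and 2, 49.2% with the clock score, and 76.5% without libraries 26, 19, and 21. In HNKO, the 493 calls became 805 with DESeq2, 245 with no filter, 1729 with all 40 libraries, 184 with only the 2 groups, and 2378 with the clock score, and leaving out each library gave 47 to 537. The interaction count of 0 was 4 with DESeq2 and 0 to 1 when leaving out each library. Ciart (1.22 ± 1.09, not called) turned to -0.69 with the clock score (adjusted p = 0.0477). Of 75 called genes that are named, 21 were called under all 26 alternatives. The causes were not tested. No paired analysis was possible because no library number is shared between groups.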
